A study of Mus musculus with 4 samples.

Results

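The MHC class II genes described here are 10 genes: H2-Aa, H2-Ab1, H2-Eb1, Cd74, H2-DMa, H2-DMb1, H2-DMb2, H2-Oa, H2-Ob and Ciita. They were chosen by symbol, each matched 1 of the 32285 genes in the matrices, and the rule uses no measured value. Their RNA was counted in CD11b+ cells sorted from MC38 tumors, a mouse colon carcinoma line, in 1 VISTA KO library and 1 WT library. VISTA is an inhibitory receptor of the B7 family, encoded by Vsir. The hosts were C57/BL6 bone marrow chimeras made with VISTA KO or WT marrow and given 6 weeks to reconstitute. Their tumors were taken at 9 to 10 mm and pooled. Antibodies to CD45.1 and CD45.2 told VISTA KO and WT cells apart, and 10000 sorted viable cells were loaded per library. The labels do not say whether VISTA KO and WT cells shared mixed chimeras or came from separate mice, so a difference of host or tumor cannot be told apart from genotype. The labels give no age, sex or number of mice, no part of Vsir that was deleted, and no measure of the host cells that remained after reconstitution. The same cells carried antibody tags for CD11c, Ly6C and Ly6G.

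MHC class II is a surface protein pair that presents peptides from the endocytic pathway to CD4+ T cells. Its alpha and beta chains assemble around the invariant chain Cd74, are freed of that chain by endosomal proteases, and receive peptide with help from H2-DM, whose action H2-O restrains. Dendritic cells and B cells carry class II constitutively, macrophages carry it after interferon-gamma, and Ciita, the coactivator of these genes, sets its transcription by binding a complex of factors assembled on their promoters. Resting mouse NK cells are not known as class II-bearing cells, and their droplets served here as a gauge of RNA from other cells.

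In C57BL/6 mice the presenting chains are H2-Aa (chr17:34282744-34287823), the alpha chain of I-A, and H2-Ab1 (chr17:34263227-34269418), its beta chain. H2-Eb1 (chr17:34305867-34316674) is the beta chain of I-E, whose alpha chain gene H2-Ea is not expressed in this strain. Ciita lies at chr16:10480014-10531064. The editing molecule H2-DM is encoded by H2-DMa (chr17:34119693-34139101), H2-DMb1 (chr17:34153191-34160229) and H2-DMb2 (chr17:34143229-34151553), and its inhibitor by H2-Oa (chr17:34092379-34095234) and H2-Ob (chr17:34238905-34245908). Positions are those of RefSeq on GRCm38.p6, the assembly behind mm10. H2-DMb1 and H2-DMb2 are near-identical copies, so the split of UMIs between them is uncertain.

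Class II promoters share a pair of elements, the X box, bound by RFX and CREB, and the Y box, an inverted CCAAT bound by NF-Y, and Ciita docks on the assembled factors. The stretches below are shown because the genes listed with them share this pair of letter runs in a promoter window. They come from the RefSeq promoter windows of GRCm38.p6, each 300 bases long, on the strand of the gene, with capitals on AAC and on GATTGG. Both strands were searched for AAC, then 20 to 35 bases, then GATTGG, and where a window held 2 matches the one with a spacing nearest to 27 bases is given.
H2-Aa, chr17:34287867-34287907, minus strand: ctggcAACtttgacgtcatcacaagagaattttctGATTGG
H2-Eb1, chr17:34305773-34305812, plus strand: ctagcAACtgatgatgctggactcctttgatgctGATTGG
H2-DMb1, chr17:34153094-34153134, plus strand: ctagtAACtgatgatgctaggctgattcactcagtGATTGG
H2-DMb2, chr17:34145123-34145163, plus strand: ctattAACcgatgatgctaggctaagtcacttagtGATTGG
H2-Oa, chr17:34092300-34092340, plus strand: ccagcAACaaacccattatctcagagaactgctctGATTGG
H2-Ob, chr17:34238815-34238852, plus strand: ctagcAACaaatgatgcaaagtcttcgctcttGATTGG
The spacing between the capitals was 27 bases in H2-Aa, H2-DMb1, H2-DMb2 and H2-Oa, 26 in H2-Eb1 and 24 in H2-Ob. The pair occurred in 970 of 32851 windows of the same length, 2.95% of them, and GATTGG alone in 16.1%. Of H2-DMa, 2 windows were listed and neither held these letters. H2-Ab1 and Ciita had no entry. A match is a description of letters, not a measured binding site.

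The VISTA KO library held 15257 barcodes, of which 15140 were kept at a median of 4212.5 UMIs, and the WT library 10241, of which 10193 were kept at a median of 4692. Across both, 47 barcode sequences occurred in each library and were treated as separate cells. Vsir stood at 46.2 CPM (UMIs of a gene scaled to a common total of the library's UMIs) in the library labelled VISTA KO and at 137 CPM in the WT library, and since the deleted part is not given, this 3' count does not measure the deletion. Cells were clustered without the class II genes and named by other markers. The label calls the sorted cells myeloid suppressor cells. Their markers showed monocyte-like cells (3850 VISTA KO, 3835 WT), macrophage-like cells (3550 VISTA KO, 1388 WT), cDC2-like cells (688 VISTA KO, 437 WT), mature DC-like cells (259 VISTA KO, 172 WT), NK cell-like cells (592 VISTA KO, 634 WT) and neutrophil-like cells (77 VISTA KO, 384 WT). A cluster with both neutrophil and macrophage RNA (782 VISTA KO, 1971 WT) and 4 unnamed clusters (5163 VISTA KO, 1142 WT) made up most of the rest. With 1 library per genotype there is no replicate, so no difference below was tested against biological spread. All intervals are 95% and cover counting error only.

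Over all kept cells, class II RNA was higher in the VISTA KO library. The sum of H2-Aa, H2-Ab1, H2-Eb1 and Cd74, called core class II RNA from here on, made up 1.87% of VISTA KO UMIs and 0.807% of WT UMIs, a log2 ratio of 1.22 (interval 1.21 to 1.22). Cd74, a gene of chromosome 18, had 8284 CPM in VISTA KO and 3811 CPM in WT cells. At least 1 core UMI was found in 99.6% of VISTA KO cells and 85.9% of WT cells. In NK cell-like droplets with under 10 UMIs of the macrophage genes C1qa, C1qb and C1qc (C1q), these shares were 98.8% in VISTA KO and 54.4% in WT, so 1 UMI is read as background. A gene was called higher or lower where its level was at least 1.5-fold apart with an interval that leaves out 1 and at least 100 UMIs over both libraries. Of the 10 class II genes, 6 were called higher over all cells, against 4.43% of 11499 genes, and none lower, against 4.19%. The 4 not called were H2-DMa at a log2 ratio of 0.49, H2-DMb2 at 0.19, H2-Oa at 0.26 and H2-Ob at 0.37. The call of H2-DMb1, at 0.70, was lost at 0.58 without the clusters held mostly by 1 library. The excess was uneven between cell classes, as the next paragraphs show.

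**Figure D1:**
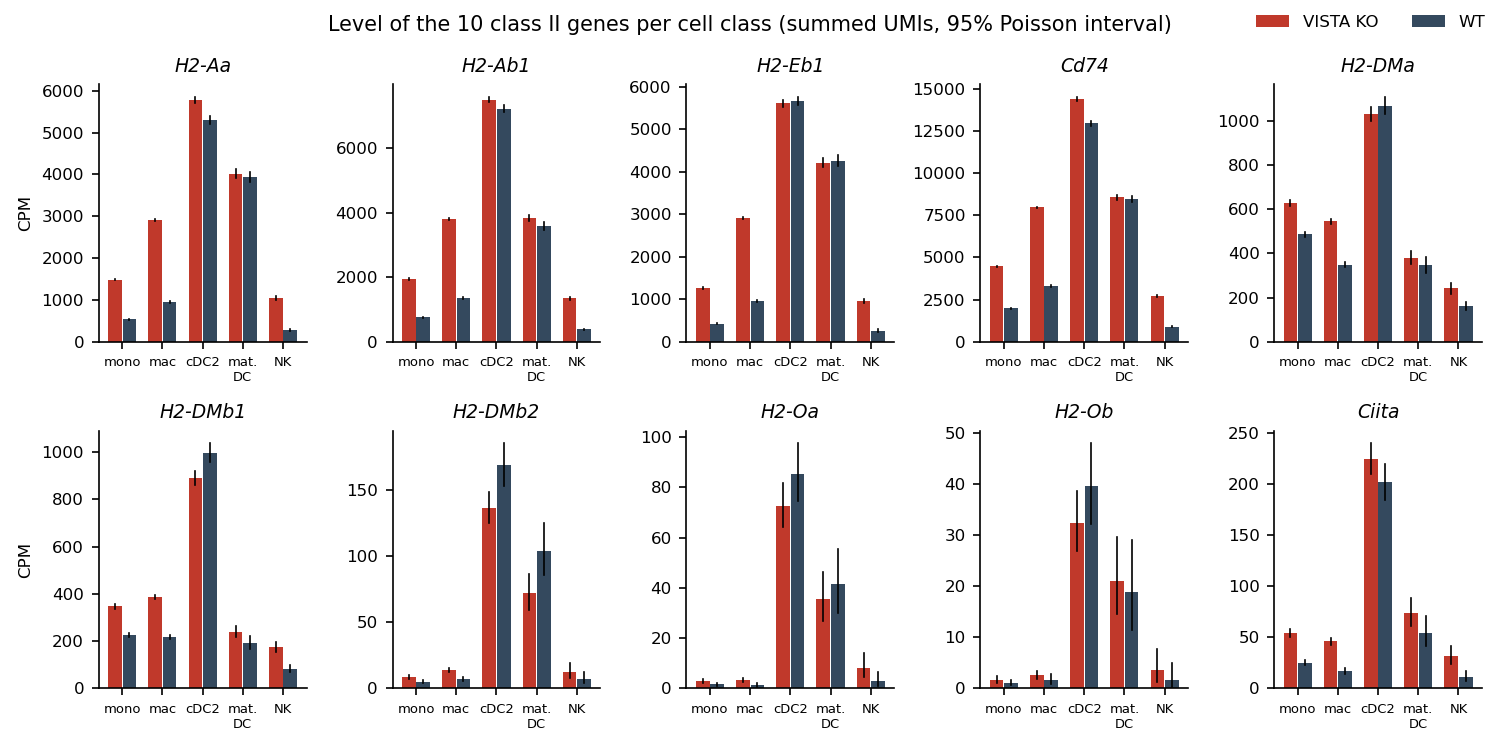
Level of each class II gene in CPM (linear axes that start at 0) by cell class, with VISTA KO bars left of WT bars and 95% Poisson intervals. The NK group holds NK cell-like cells with under 10 C1q UMIs. Monocyte-like and macrophage-like bars of the presenting chains stand higher in VISTA KO, while cDC2-like and mature DC-like bars of the presenting chains lie close together.

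In monocyte-like cells, the RNA of the presenting chains and of Cd74 was higher in the VISTA KO library. Core class II RNA stood at 9167 CPM (interval 9120 to 9215) in VISTA KO and 3707 CPM (3679 to 3735) in WT monocyte-like cells, a 2.47-fold ratio. That log2 ratio of 1.31 was 0.63 or 1.10 with the mean of NK cell-like droplets taken off, depending on the gauge given below. H2-Eb1 had 1262 CPM in VISTA KO and 431 CPM in WT cells, a log2 ratio of 1.55 (1.51 to 1.59). H2-Aa had 1485 CPM in VISTA KO and 536 CPM in WT cells, a log2 ratio of 1.47. The presenting chains moved more than their chaperone: H2-Ab1 had a log2 ratio of 1.35, at 1946 CPM in VISTA KO and 763 CPM in WT cells, and Cd74 one of 1.18, at 4473 CPM in VISTA KO and 1976 CPM in WT cells. NK cell-like droplets showed this too, with 1.79 for H2-Aa, 1.78 for H2-Eb1, 1.73 for H2-Ab1 and 1.46 for Cd74. Ciita had 54.0 CPM (834 UMIs) in VISTA KO and 25.2 CPM (457 UMIs) in WT cells, a log2 ratio of 1.10 (0.93 to 1.27). In NK cell-like droplets the log2 ratio of Ciita was higher, at 1.499.

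The peptide editors differed less, as they did in NK cell-like droplets, at log2 ratios of 0.65 for H2-DMa and 1.02 for H2-DMb1. H2-DMa had 628 CPM in VISTA KO and 486 CPM in WT monocyte-like cells, a log2 ratio of 0.37 that was not called. H2-DMb1 had 347 CPM in VISTA KO and 226 CPM in WT cells, a log2 ratio of 0.62 that just passed the call, and lost it at 0.48 to 0.55 with class II genes allowed in the clustering, with each library clustered alone, with the stricter cell filter or with the median gene ratio as scale. H2-DMb2 had 127 UMIs in VISTA KO and 91 UMIs in WT cells. Its ratio passed the call at 0.71 (0.31 to 1.12), and lost the call at 0.24 to 0.58 with class II genes in the clustering, each library alone or classes from marker UMIs. Its 8.23 CPM in VISTA KO and 5.02 CPM in WT monocyte-like cells were no higher than in NK cell-like droplets, so this level is read as background. H2-Oa and H2-Ob, with 70 and 44 UMIs over both libraries, were under the 100-UMI limit. In all, 7 of the 8 class II genes tested were called higher in monocyte-like cells, against 4.76% of 8777 genes, and none lower, against 1.7%, with a median log2 ratio of 1.14 against 0.07 for all genes.

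Each of the 4 monocyte-like clusters had more class II RNA in VISTA KO. Clusters 5 and 11 lay near the level of NK cell-like droplets with under 10 C1q UMIs. The class II genes called higher were 5 of 8 tested in cluster 1, against 4.6% of all genes, 6 of 7 in cluster 5, against 5.1%, 5 of 7 in cluster 6, against 3.97%, and 6 of 7 in cluster 11, against 4.52%. Core class II RNA had a log2 ratio of 1.14 in cluster 1, led by Vcan, Chil3 and Plac8, and 1.59 in cluster 5, led by Vcan and Ifitm6. The ratio was 1.21 in cluster 6, which interferon-induced genes such as Ifit3 and Ifit2 led, and 1.32 in cluster 11, led by Ace, Adgre4 and Ear2. The levels of the clusters kept the same order in both libraries: cluster 6 was highest, at 13708 CPM in VISTA KO and 5909 CPM in WT cells, and cluster 5 lowest, at 5167 CPM in VISTA KO and 1716 CPM in WT cells. In CPM, cluster 5 lay under those NK droplets in both libraries, and cluster 11 did in VISTA KO. With cells thinned to equal UMIs, both clusters had a median of 2 core UMIs in VISTA KO and 0 in WT. The NK droplets had the same medians. At least 10 core UMIs were then held by 16.9% of VISTA KO and 4.72% of WT cluster 5 cells. In the same order, cluster 11 had 16.8% and 5.53%, and the NK droplets 9.29% and 2.55%. The part of RNA from other cells in clusters 5 and 11 was not tested. Cluster 1 held 1475 of the VISTA KO and 1862 of the WT cells of the class, and cluster 6 held 991 VISTA KO and 539 WT cells. With the clusters weighted equally, the log2 ratio of the class was 1.26.

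Macrophage RNA moved with class II RNA in monocyte-like cells. The macrophage marker list stood at 5472 CPM in VISTA KO and 2944 CPM in WT monocyte-like cells, and 8 of its 12 tested genes were called higher, against 4.76% of all genes. C1q had a log2 ratio of 0.70 there. The monocyte marker list stood at 18499 CPM in VISTA KO and 19418 CPM in WT cells, with 0 of its 12 genes called in either direction. In monocyte-like droplets without any C1q UMI, the log2 ratio of core class II RNA was 1.27. The same filter left a log2 ratio of 2.39 in NK cell-like droplets, against 1.62 in all of them. It therefore cannot show how much class II RNA came from other cells. The part of macrophage RNA in the class II difference was not tested.

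In macrophage-like cells the RNA of the presenting chains, Cd74 and Ciita was higher in the VISTA KO library. Core class II RNA stood at 17610 CPM (17550 to 17670) in VISTA KO and 6588 CPM (6533 to 6643) in WT macrophage-like cells, a 2.67-fold ratio. H2-Aa had 2914 CPM in VISTA KO and 960 CPM in WT cells, a log2 ratio of 1.60 (1.57 to 1.64). Ciita had 45.9 CPM (866 UMIs) in VISTA KO and 16.5 CPM (140 UMIs) in WT cells, a log2 ratio of 1.47 (1.22 to 1.74). The presenting chains H2-Eb1 and H2-Ab1 followed with 1.59 and 1.49, and Cd74 with 1.27. In NK cell-like droplets the log2 ratios were 1.79 for H2-Aa, 1.78 for H2-Eb1, 1.73 for H2-Ab1, 1.46 for Cd74 and 1.499 for Ciita. None of these was lower than in macrophage-like cells. The part of RNA from other cells in these single-gene ratios was not tested.

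The editors were again lower in the order, as in NK cell-like droplets, with log2 ratios of 0.64 for H2-DMa and 0.84 for H2-DMb1. The call of H2-DMa was lost at 0.52 with clusters weighted equally, at 0.49 with classes from marker UMIs and at 0.43 with the lower limits on genes and UMIs lifted, where that of H2-DMb1 was lost at 0.58. H2-DMb2 had 262 UMIs in VISTA KO and 58 UMIs in WT macrophage-like cells, a log2 ratio of 1.00 that was 0.52 with classes from marker UMIs and -0.29 with those limits lifted. Its 13.9 CPM in VISTA KO and 6.83 CPM in WT lay close to the 12.4 and 7.24 CPM of VISTA KO and WT NK droplets with under 10 C1q UMIs, so it is read as background here too. Counting H2-DMb2, 8 of 8 class II genes tested were called higher, against 3.86% of 9039 genes, and none lower, against 1.71%. H2-Oa and H2-Ob were under 100 UMIs. C1q differed little in these cells, at 9963 CPM in VISTA KO and 9145 CPM in WT cells.

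The make-up of the macrophage-like class differed between libraries. Cluster 0, led by Ms4a7, Cd72 and C1qa, held 2804 VISTA KO and 833 WT cells and had 20997 CPM of core class II RNA in VISTA KO and 9322 CPM in WT cells, a log2 ratio of 1.17. Cluster 8, led by Pmp22, Mmp12 and Mt2, held 746 VISTA KO and 555 WT cells and had 8985 CPM in VISTA KO and 3329 CPM in WT cells, a log2 ratio of 1.43. Of the class II genes tested, 7 of 8 were called higher in cluster 0, against 4.12% of all genes, and 6 of 7 in cluster 8, against 3.54%. Both clusters thus differed in the same direction, and with equal weights the class had a log2 ratio of 1.24 in place of 1.42.

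Dendritic cells held the most class II RNA among the named classes and showed little difference between libraries. cDC2-like cells, type 2 conventional dendritic cells marked by Cd209a, Kmo and Clec10a, had 33294 CPM of core class II RNA in VISTA KO and 31133 CPM in WT, a log2 ratio of 0.097 (0.084 to 0.11). Mature DC-like cells, marked by Ccr7, Fscn1 and Ccl22, had 20642 CPM in VISTA KO and 20261 CPM in WT, a log2 ratio of 0.027 (0.0020 to 0.052). Over both DC-like groups, none of the 10 class II genes was called higher, against 5.18% of 6316 genes, and none lower, against 1.39%. Macrophage RNA differed in these cells too: the macrophage list stood at 1802 CPM in VISTA KO and 868 CPM in WT cDC2-like cells, and its part was not tested. With 1 library each, these intervals do not bound what other mice would show.

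Within DC-like cells the small differences ran in different directions. Ciita had 224 CPM in VISTA KO and 202 CPM in WT cDC2-like cells, with an interval of the log2 ratio from -0.01 to 0.31. H2-Eb1 lay at 5611 CPM in VISTA KO and 5676 CPM in WT cDC2-like cells, which is level within counting error. H2-DMb2 was 137 CPM in VISTA KO and 169 CPM in WT cDC2-like cells, a log2 ratio of -0.31 (-0.49 to -0.12), short of the 1.5-fold call. In mature DC-like cells H2-DMb2 had 72.0 CPM (113 UMIs) in VISTA KO and 104 CPM (111 UMIs) in WT, a log2 ratio of -0.53 (-0.93 to -0.14). Its near-identical copy H2-DMb1 ran the other way there, with 1.12% of class II UMIs in VISTA KO and 0.913% in WT. H2-DMb2 made up 0.336% of them in VISTA KO and 0.497% in WT. The split of UMIs between the copies is uncertain, so the ratio of H2-DMb2 alone is not read as a difference of that gene. H2-Oa, the alpha chain of the H2-DM inhibitor, had 72.6 CPM in VISTA KO and 85.5 CPM in WT cDC2-like cells, with an interval of the log2 ratio from -0.50 to 0.026. H2-Ob, its beta chain, had 32.4 CPM in VISTA KO and 39.5 CPM in WT, with an interval from -0.68 to 0.11.

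H2-DMb2, H2-Oa and H2-Ob were found in a larger share of cDC2-like than of monocyte-like cells. H2-DMb2 was found in 33.0% of VISTA KO and 45.1% of WT cDC2-like cells, and in 3.09% of VISTA KO and 2.24% of WT monocyte-like cells. At least 1 UMI of H2-Oa was found in 24.6% of VISTA KO and 30.4% of WT cDC2-like cells, and in 1.01% of VISTA KO and 0.730% of WT monocyte-like cells. The shares in NK cell-like droplets with under 10 C1q UMIs were 2.07% in VISTA KO and 0.528% in WT, at median depths of 2564 UMIs in VISTA KO and 2292 UMIs in WT. Those of cDC2-like cells were 4871.5 UMIs in VISTA KO and 5430 UMIs in WT. After each cell was thinned to 1000 UMIs, H2-Oa was found in 6.19% of VISTA KO and 7.89% of WT cDC2-like cells, against 0.216% of VISTA KO NK droplets and 0 of 549 WT NK droplets. H2-Ob was found in 4.08% of VISTA KO and 5.34% of WT thinned cDC2-like cells, and in 0.082% of VISTA KO and 0.079% of WT thinned monocyte-like cells. In monocyte-like cells, H2-Oa was found in 0.411% of VISTA KO and 0.159% of WT thinned cells. The exact intervals of the NK shares, 0.0055% to 1.20% in VISTA KO and 0% to 0.670% in WT, include these shares of H2-Oa. They rest on so few positive NK droplets that they would include most small shares, and cannot decide what is background. No NK share of H2-Ob is given here. Neither gene is read as expressed in monocyte-like cells.

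The balance between class II genes also differed between classes. Per 100 Cd74 UMIs, H2-DMa gave 14.0 UMIs in VISTA KO and 24.6 in WT monocyte-like cells, 6.8 in VISTA KO and 10.6 in WT macrophage-like cells, and 4.4 in VISTA KO and 4.1 in WT mature DC-like cells. Per 100 H2-Ab1 UMIs, H2-Aa gave 105 in VISTA KO and 110 in WT mature DC-like cells, and 77.1 in VISTA KO and 73.5 in WT cDC2-like cells. These are ratios of UMIs and not of transcripts per length, so only the same ratio in different cells is compared. Per 100 H2-DMb1 UMIs, H2-DMb2 gave 15.4 in VISTA KO and 16.9 in WT cDC2-like cells, 30.1 in VISTA KO and 54.4 in WT mature DC-like cells, and 2.4 in VISTA KO and 2.2 in WT monocyte-like cells. These last values rest on the uncertain split of UMIs between near-identical copies.

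**Figure D2:**
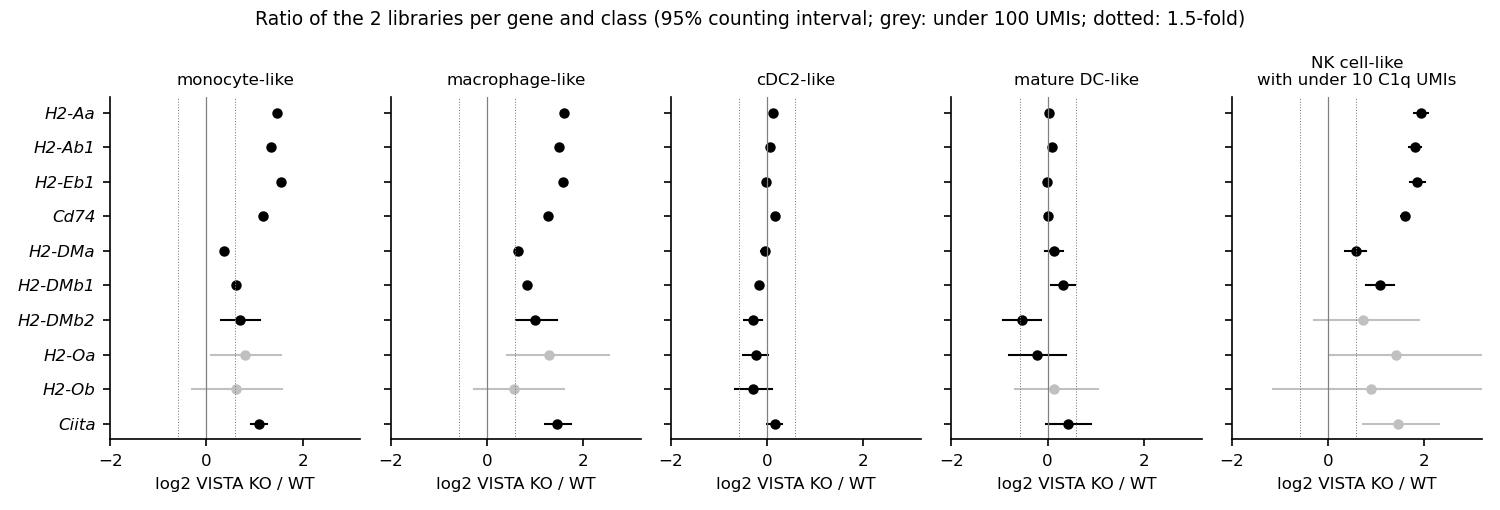
Log2 ratio of VISTA KO to WT for each class II gene in 5 groups of cells, with 95% counting intervals. Grey points have under 100 UMIs over both libraries and dotted lines mark a 1.5-fold ratio. The presenting chains and Ciita lie right of the dotted line in monocyte-like and macrophage-like cells and near 0 in cDC2-like cells, and the NK group, which gauges RNA from other cells, lies to the right as well.

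Free RNA was judged from the NK cell-like droplets, and it carried class II RNA in both libraries. NK cell-like droplets had 10533 CPM of core class II RNA in VISTA KO and 3417 CPM in WT, and 7 of 7 class II genes tested were called higher there, against 5.45% of 5545 genes, and none lower, against 1.46%. The call of H2-DMa among them, at 0.65, was lost at 0.46 to 0.58 under 4 alternatives. Part of this came with macrophage RNA: 109 VISTA KO droplets (18.4%) and 66 WT droplets (10.4%) held at least 10 C1q UMIs, at medians of 9554 UMIs in VISTA KO and 9827.5 UMIs in WT. These held a median of 141 core class II UMIs in VISTA KO and 50 in WT. Droplets with under 10 C1q UMIs held a median of 4 core UMIs in VISTA KO and 1 in WT, at 6073 CPM in VISTA KO and 1822 CPM in WT.

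These droplets held a mean of 21.3 core UMIs in VISTA KO and 5.76 in WT, which equals 57.9% of the core UMIs of an average monocyte-like droplet in VISTA KO and 32.9% in WT, and 22.7% in VISTA KO and 14.3% in WT of a macrophage-like one. The mean over all NK cell-like droplets, 50.1 in VISTA KO and 13.6 in WT, was above the monocyte-like mean of 36.7 in VISTA KO and below that of 17.5 in WT. Taken off every droplet, the mean of the NK droplets with under 10 C1q UMIs left log2 ratios of 0.63 in monocyte-like, 1.27 in macrophage-like and -0.063 in DC-like cells. This subtraction was chosen after seeing the data. The means it used lay above the medians, which were 4 core UMIs in VISTA KO and 1 in WT. The 95th percentiles were 125.1 core UMIs in VISTA KO and 15.65 in WT, so the droplets were far from alike.

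Among the NK groups whose mean was taken off, that of a finer clustering had the lowest class II level. It too was chosen after seeing the data and held 394 VISTA KO and 502 WT droplets, with a mean of 7.39 core class II UMIs in VISTA KO and 1.32 in WT, and a 95th percentile of 14 in VISTA KO and 3 in WT. That mean equals 20.1% of the core UMIs of an average monocyte-like droplet in VISTA KO and 7.56% in WT. In macrophage-like cells it equals 7.89% in VISTA KO and 3.29% in WT, and in DC-like cells 4.40% in VISTA KO and 0.791% in WT. Taken off every droplet, it left log2 ratios of 1.10 in monocyte-like, 1.35 in macrophage-like and 0.028 in DC-like cells. The class II RNA of these NK droplets thus differed between the libraries in the same direction as the cells did, and how much of the class II RNA of monocyte-like cells lay above it depended on the gauge. Ratios left with the NK median taken off, a smaller amount in both libraries, are given with the other alternatives at the end.

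**Figure D3:**
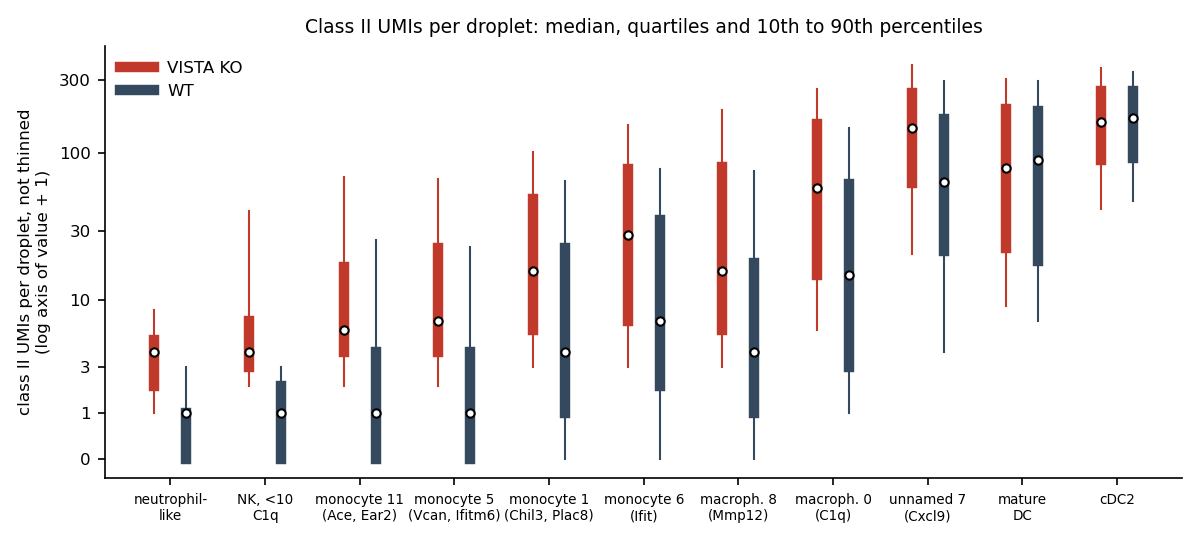
Core class II UMIs per droplet, not thinned, on a log axis of the value plus 1, with VISTA KO left of WT. White points are medians, thick bars quartiles and thin lines the 10th to 90th percentiles over droplets of a cluster or class. Medians of NK droplets with under 10 C1q UMIs were 4 in VISTA KO and 1 in WT, and those of cDC2-like cells 159 in VISTA KO and 170 in WT.

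Whether all cells were shifted or a subset was positive was read from cells thinned to 1000 UMIs each. In monocyte-like cells the 10th, 25th, 50th, 75th and 90th percentiles of core class II UMIs were 0, 1, 4, 13 and 26 in VISTA KO and 0, 0, 1, 4 and 11 in WT. In NK cell-like droplets with under 10 C1q UMIs they were 0, 1, 2, 3 and 8 in VISTA KO and 0, 0, 0, 1 and 2 in WT. The 25th percentile of monocyte-like cells thus equalled that of the NK droplets of its own library, and the percentiles from the 50th up lay above those of the NK droplets. The thinned cells numbered 3650 VISTA KO and 3778 WT, with 200 VISTA KO and 57 WT cells left out as too shallow.

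In VISTA KO, macrophage-like cells lay above the NK droplets over a wider part of their range than monocyte-like cells did. The percentiles of macrophage-like cells were 1, 3, 12, 28 and 43 in VISTA KO and 0, 0, 2, 8 and 19 in WT. At the 10th and 25th percentiles, NK droplets with under 10 C1q UMIs held 0 and 1 in VISTA KO. In WT these 10th and 25th percentiles were the same in macrophage-like cells and NK droplets. At least 10 core UMIs per 1000, a cut chosen after seeing the data, were held by 56.7% of VISTA KO and 21.4% of WT macrophage-like cells, and by 31.8% of VISTA KO and 12.4% of WT monocyte-like cells. The same cut was passed by 9.29% of VISTA KO and 2.55% of WT NK droplets with under 10 C1q UMIs. Among the cells past it, the median was 26 core UMIs in VISTA KO and 18 in WT macrophage-like cells, and 20 in VISTA KO and 16 in WT monocyte-like cells. The share of cells past the cut was thus higher in VISTA KO, and a median among cells selected by the same UMIs is given as a description.

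In DC-like cells the libraries lay closer together. The cut of 10 was passed by 91.5% of VISTA KO and 89.6% of WT cDC2-like cells, and by 64.6% of VISTA KO and 63.0% of WT mature DC-like cells. The percentiles of cDC2-like cells were 11, 20.25, 33, 46 and 59 in VISTA KO and 9, 18, 31, 44 and 55 in WT. Mature DC-like cells were spread more widely, with percentiles of 3, 7, 16, 31.75 and 52.5 in VISTA KO and 1, 5, 15, 35 and 49 in WT.

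A threshold set per library at the 95th percentile of NK cell-like droplets gave another picture, because it fell at 29 core UMIs per 1000 in VISTA KO and at 9 in WT. Above it lay 7.89% of VISTA KO and 12.4% of WT monocyte-like cells, 23.1% of VISTA KO and 21.4% of WT macrophage-like cells, and 49.2% of VISTA KO and 82.3% of WT DC-like cells. With 29 UMIs for both libraries the shares were 7.89% in VISTA KO and 1.64% in WT monocyte-like cells, 23.1% in VISTA KO and 4.80% in WT macrophage-like cells, and 49.2% in VISTA KO and 47.6% in WT DC-like cells. With the 95th percentile of NK droplets with under 10 C1q UMIs, a threshold of 19 in VISTA KO and 3 in WT, they were 16.0% in VISTA KO and 25.6% in WT monocyte-like cells, 37.3% in VISTA KO and 40.5% in WT macrophage-like cells, and 68.0% in VISTA KO and 92.6% in WT DC-like cells. The direction of the share therefore depended on the threshold in all 3 classes. The 95th percentile of NK droplets moves with the droplets that also hold macrophage RNA, which were 18.4% of NK droplets in VISTA KO and 10.4% in WT.

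**Figure D4:**
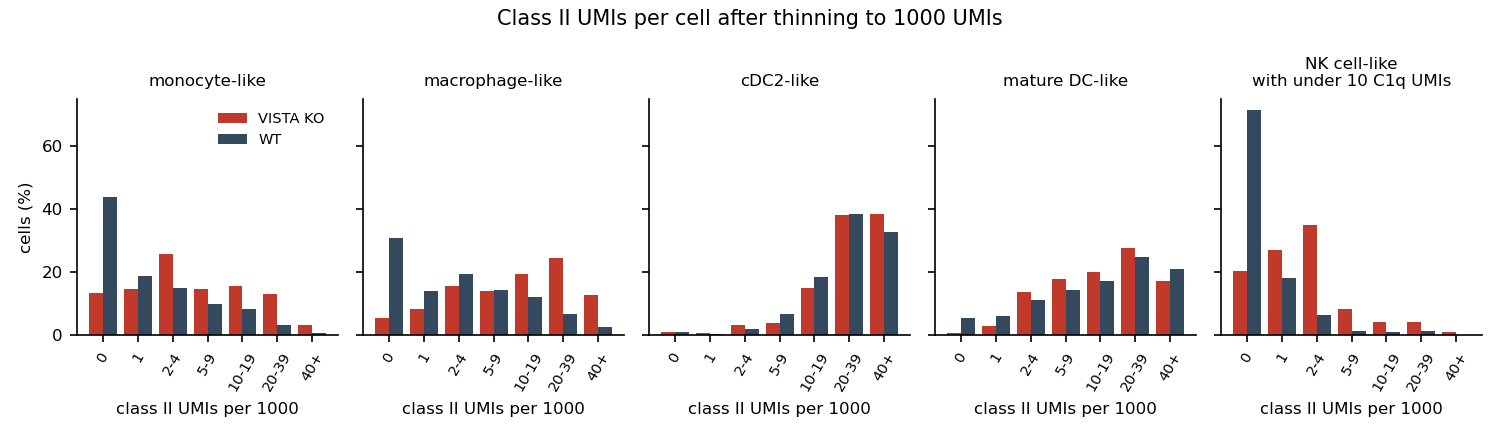
Share of cells (%, from 0) in each range of core class II UMIs after every cell was thinned to 1000 UMIs, with VISTA KO left of WT. In VISTA KO, 13.4% of monocyte-like and 5.33% of macrophage-like cells held 0 such UMIs, against 43.9% and 30.9% in WT. The cDC2-like panels of the libraries nearly coincide.

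Ciita followed the amount of class II RNA from cell to cell. In VISTA KO monocyte-like cells with 0, 1 to 4, 5 to 9, 10 to 19 and at least 20 core UMIs per 1000, Ciita stood at 17.3, 33.2, 69.0, 79.9 and 95.3 CPM. In WT monocyte-like cells it stood at 8.82, 19.4, 45.3, 66.3 and 95.1 CPM over the same ranges. NK droplets with under 10 C1q UMIs had 31.3 CPM (53 UMIs) in VISTA KO and 11.1 CPM (20 UMIs) in WT, so the lowest range lay at or under that level in both libraries. The VISTA KO range of 1 to 4 core UMIs, at 33.2 CPM (28.7 to 38.2), lay close to the NK level too. In the ranges up to 9 core UMIs, Ciita was higher in VISTA KO than in WT, as it was in the NK droplets. With 10 to 19 core UMIs the Poisson intervals overlapped, at 69.2 to 91.7 CPM in VISTA KO and 54.7 to 79.6 CPM in WT. In the highest range Ciita was not higher. With at least 20 core UMIs, its intervals were 83.6 to 108 CPM in VISTA KO and 73.1 to 122 CPM in WT. That range held 16.0% of VISTA KO and 3.92% of WT monocyte-like cells.

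H2-DM rose over the same ranges. H2-DMb1 climbed from 102 CPM at 0 core UMIs to 786 CPM at 20 or more in VISTA KO monocyte-like cells, and from 73.0 to 901 CPM in WT. H2-DMa climbed less, from 376 to 986 CPM in VISTA KO and from 337 to 892 CPM in WT. Monocyte-like cells without a core UMI among 1000 thus still held H2-DMa, above the 241 CPM in VISTA KO and 162 CPM in WT of NK droplets with under 10 C1q UMIs. In macrophage-like cells, Ciita went with core class II RNA in the same way, reaching 81.9 CPM in VISTA KO and 61.1 CPM in WT in the highest range.

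Macrophage and cDC2 markers moved over these ranges as well. In monocyte-like cells the macrophage list climbed from 2608 to 9226 CPM in VISTA KO and from 1979 to 5534 CPM in WT between the lowest and the highest range, while the monocyte list went from 19287 to 15203 CPM in VISTA KO and from 19691 to 15875 CPM in WT. The cDC2 list climbed from 65.2 to 107 CPM in VISTA KO and from 53.2 to 103 CPM in WT. Vsir lay at 42.4 CPM in the lowest and 33.7 CPM in the highest range in VISTA KO, and at 140 CPM in the lowest and 113 CPM in the highest range in WT. The part of macrophage or cDC2 RNA in the class II levels of these cells was not tested.

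**Figure D5:**
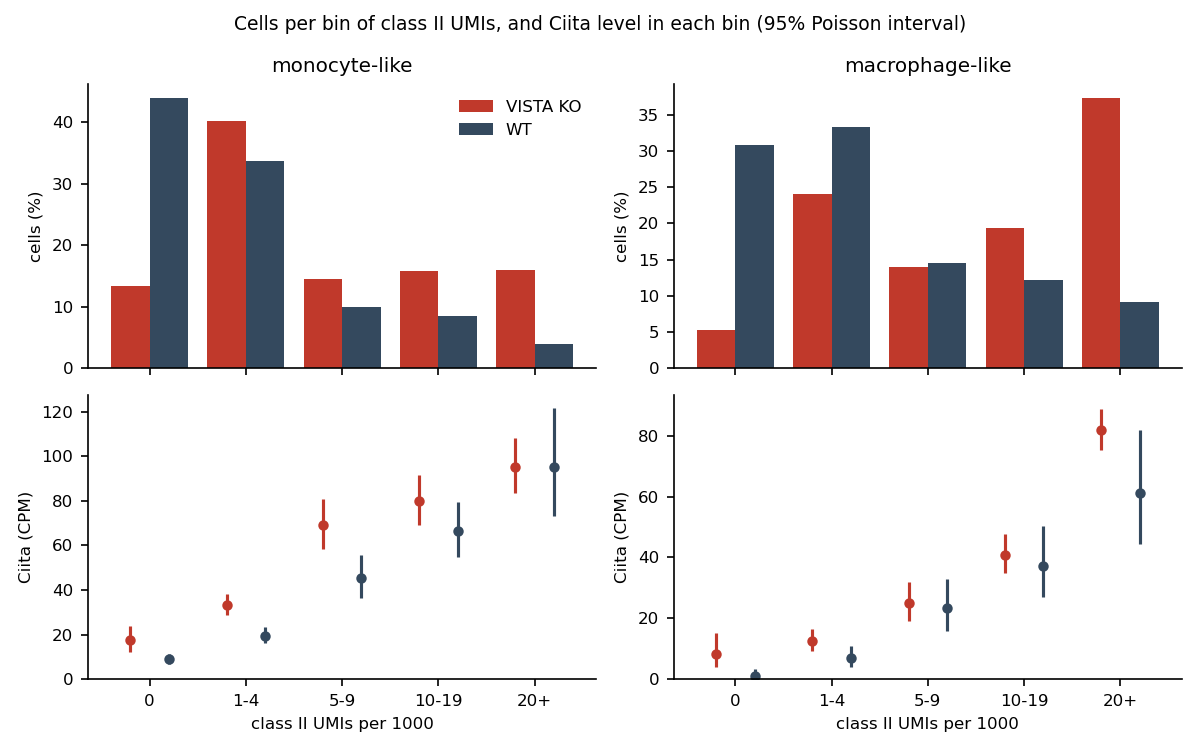
Upper panels show the share of cells (%) in each range of core class II UMIs per 1000, and lower panels the Ciita level (CPM) in the same ranges with 95% Poisson intervals, for monocyte-like and macrophage-like cells, with VISTA KO left of WT. Ciita is higher in ranges with more class II RNA in both libraries, and the highest range of monocyte-like cells holds 95.3 CPM in VISTA KO and 95.1 CPM in WT.

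The surface tags gave a readout that had no part in the clustering. Monocyte-like cells were split by their CD11c tag into the lowest, the middle and the highest tertile within each library. At least 10 core UMIs per 1000 were held by 18.8%, 30.6% and 49.0% of VISTA KO cells and by 5.02%, 10.8% and 23.0% of WT cells over these groups. Cells with more CD11c, the integrin chain Itgax, thus held class II RNA more often in both libraries. The mean C1q count climbed as well, over 3.32, 5.40 and 13.4 UMIs in VISTA KO and 2.29, 3.65 and 9.65 UMIs in WT, and its part was not tested.

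In macrophage-like cells the same split gave 45.3%, 56.0% and 69.9% in VISTA KO and 14.5%, 19.1% and 31.2% in WT. The WT cells highest in CD11c thus held class II RNA less often than the VISTA KO cells lowest in CD11c. By Ly6C, the tag of classical monocytes, 24.2%, 28.9% and 42.2% of VISTA KO and 10.1%, 9.32% and 17.7% of WT monocyte-like cells passed the same cut. The mean C1q count over these Ly6C groups was 4.93, 5.44 and 11.1 UMIs in VISTA KO and 2.79, 3.59 and 8.78 UMIs in WT, and over the CD11c groups of macrophage-like cells 46.3, 52.4 and 71.0 UMIs in VISTA KO and 45.2, 56.0 and 74.3 UMIs in WT. By Ly6C, 51.4%, 63.7% and 55.1% of VISTA KO and 19.8%, 24.5% and 19.9% of WT macrophage-like cells passed the cut, without a steady climb. In cDC2-like cells the Ly6C groups had 95.9%, 86.8% and 91.9% in VISTA KO and 95.8%, 86.7% and 86.1% in WT. The VISTA KO shares were above the WT shares in each of these monocyte-like and macrophage-like groups, and the part of macrophage RNA was not tested.

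The unnamed clusters together had 23341 CPM of core class II RNA in VISTA KO and 13069 CPM in WT, a log2 ratio of 0.84. Of 10 class II genes, 7 were called higher, against 3.96% of all genes, and 1 lower, against 3.01%. The gene called lower was H2-DMb2, at 23.6 CPM in VISTA KO and 46.8 CPM in WT, a log2 ratio of -0.99 (-1.19 to -0.78). Within the single unnamed clusters H2-DMb2 was not called, and 193 of its 278 WT UMIs came from cluster 14, against 64 of 654 in VISTA KO. Cluster 7, led by Cxcl9, an interferon-gamma-induced chemokine, and by Gpr84 and Ly6i, had 37563 CPM of core class II RNA in VISTA KO and 24025 CPM in WT, above that of cDC2-like cells in the VISTA KO library. Class II genes were themselves among its 10 leading genes, although the clustering did not use them. Of 8 class II genes tested in it, 3 were called higher, against 4.35% of all genes. It held 1315 VISTA KO cells (8.69%) and 181 WT cells (1.78%). Its core class II RNA had a log2 ratio of 0.64 (0.62 to 0.67) and its Ciita one of 0.45 (0.13 to 0.82), at 126 CPM in VISTA KO and 91.3 CPM in WT.

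Cluster 3, led by Gpr84, Slc7a2 and Anpep, held 2221 VISTA KO and 306 WT cells and had 19073 CPM of core class II RNA in VISTA KO and 8586 CPM in WT, a log2 ratio of 1.15, with 6 of 9 class II genes called higher, against 4.14% of all genes. With 1 library per genotype, a cluster held mostly by 1 library may be that library and not a cell type. With the 4 clusters held mostly by 1 library left out, the ratio over all cells was 1.07 in place of 1.22. Counted as monocyte-like, cluster 7 would give that class a log2 ratio of 1.90 in place of 1.31, so the value for monocyte-like cells depends on where these cells are placed. Cluster 14, led by Retnla, had 21920 CPM in its 56 VISTA KO cells and 17964 CPM in its 125 WT cells. Its H2-DMb2, at 110 CPM in VISTA KO and 134 CPM in WT, was above the NK level, with an interval of the log2 ratio from -0.72 to 0.12.

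Other genes of the pathway mostly stayed within 1.5-fold. Of the 7 factors that bind class II promoters, none was called in monocyte-like cells, where the list had a median log2 ratio of 0.20 against 0.067 for all genes. The highest log2 ratio was 0.31 for Rfx5 and the lowest -0.23 for Rfxap, both subunits of RFX. In macrophage-like cells 1 of the 7, Rfx5, was called higher at 0.99, on 92 UMIs in VISTA KO and 20 UMIs in WT. In DC-like cells 1 of the 5 tested, Nfya, a subunit of NF-Y, was called higher, at 44.2 CPM in VISTA KO and 28.0 CPM in WT. Nfyb, another subunit of NF-Y, went the other way there without a call, at -0.44 (-0.84 to -0.03). The list had a median log2 ratio of -0.17 in DC-like cells. In cDC2-like cells alone, 0 of 4 tested were called higher, against 5.27% of all genes, and 1 lower, against 1.79%. Of 9 genes upstream of Ciita, none was called in monocyte-like, macrophage-like or DC-like cells, where 4.76%, 3.86% and 5.18% of all genes were called higher, so this count says nothing particular about them. Socs1, a feedback inhibitor of cytokine signalling, had 257 CPM in VISTA KO and 213 CPM in WT monocyte-like cells, a log2 ratio of 0.27.

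The same shares of all genes stand beside the counts that follow. Of 6 proteases and other genes of antigen processing, 1 was called higher in monocyte-like cells, against 4.76% of all genes, Lgmn, an endosomal protease, at 391 CPM in VISTA KO and 236 CPM in WT. Ctss, the cathepsin that trims the invariant chain in these cells, had 4457 CPM in VISTA KO and 3355 CPM in WT monocyte-like cells, a log2 ratio of 0.41 that was not called. None of the 6 was called in macrophage-like cells, and 1, the cathepsin Ctsl, was called higher in DC-like cells, at 125 CPM in VISTA KO and 75.7 CPM in WT. Of the 3 costimulatory genes, Cd40 was called higher in monocyte-like cells at 0.60 and in macrophage-like cells at 0.78, and Cd86 was at 0.39 in both without a call. NK cell-like droplets moved the same way: Cd40 was called higher there at 0.86, Cd86 at 0.75, Ctss at 0.73 and Ifi30, a lysosomal thiol reductase, at 0.89, against 5.45% of all genes, and the part of RNA from other cells in these ratios was not tested. Cd80 had 7.32 CPM in VISTA KO and 7.39 CPM in WT monocyte-like cells. The ubiquitin ligase March1, which takes class II from the surface, had a log2 ratio of 0.19 in monocyte-like cells and was not called. H2-Eb2, a further class II beta chain gene, had 106 UMIs in VISTA KO and 64 UMIs in WT DC-like cells and was not called there.

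Over 33 sums of a cluster in a library, the gene whose log2 CPM was most like the mean of the 4 core genes was Dapk1, a death-associated kinase, with a Pearson r of 0.91 among 9074 genes. Ciita was next at 0.87, followed by H2-DMb1 at 0.87, Tnip3 at 0.84 and Ptms at 0.83. H2-DMb2 was at rank 8, H2-DMa at rank 12, H2-Ob at rank 43 and H2-Oa at rank 674. The points share 2 libraries, their depth and their free RNA, so these values are a description.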

How the data were processed

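The deposited matrices hold UMI counts per gene, antibody tag and barcode, written by Cell Ranger 5.0.0 per the file headers. The submitters' processing notes name mm10, Cell Ranger and Seurat 4.0; how cells were called is not given there. Cells with at least 200 genes, 500 UMIs and at most 10% mitochondrial UMIs were kept. Both libraries were clustered together (scanpy 1.11.5; leidenalg 0.10.2, igraph 0.11.9; 2000 variable genes without the class II genes, 30 components, 15 neighbours, resolution 1) and clusters named where at least 3 listed markers were 1.5-fold higher and in at least 20% of cells. No doublet caller was used. UMIs were summed per class and library, and levels given as CPM with exact Poisson intervals, ratios with exact conditional binomial intervals (1 UMI added to each sum) and shares with exact binomial intervals (scipy 1.17.1). PCR duplicates are collapsed by UMI, but droplets of 1 pool are not replicates. Per-cell values were thinned to 1000 UMIs, and floors are 3 counts. The ratio calls were checked on simulated counts drawn with counting error only, so that check does not cover spread between libraries or mice. The genes named are the 10 class II genes and, per pathway list and class, up to 4 with at least 100 UMIs: the 2 highest and the 2 lowest ratios, and, of all genes, the 5 most like the core genes. The class II genes and all lists were chosen with earlier results of these data known. Alternatives were other clusterings, filters, scalings, thresholds and ways of taking off free RNA, 8 of them chosen after seeing the data.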

Additional observations from a re-analysis of the deposited data

How the results depend on the processing

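No paired analysis was possible because either genotype had a single library. The log2 ratio of core class II RNA stayed above 0 in monocyte-like, macrophage-like and NK cell-like cells and over all cells under every alternative run, and in DC-like cells under all but 1. It ran from 0.63 to 1.90 in monocyte-like cells, 1.11 to 1.55 in macrophage-like cells, -0.063 to 0.20 in DC-like cells, 1.54 to 4.39 in NK cell-like cells and 1.05 to 1.26 over all cells.

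Values in this paragraph are log2 ratios of core class II RNA. With class II genes allowed in the clustering they were 1.15 in monocyte-like and 0.20 in DC-like cells, and with library-marking genes left out of it 1.53 and 0.10. Each library clustered alone gave 1.18 (monocyte-like), 1.55 (macrophage-like), 0.050 (DC-like) and 4.39 (NK cell-like). In the same order, resolution 2 gave 1.45, 1.46, 0.10 and 2.37, the stricter filter 1.26, 1.48, 0.10 and 2.30, the median gene ratio as scale 1.24, 1.37, 0.022 and 1.58, and the droplets with the top 5% of UMIs left out 1.29, 1.46, 0.043 and 1.88. Monocyte-like and macrophage-like cells had 1.64 and 1.44 at resolution 0.5, 1.42 and 1.11 with the lower limits on genes and UMIs lifted, 1.45 and 1.28 with classes from marker UMIs, and 1.26 and 1.24 with clusters weighted equally, which gave 0.070 in DC-like cells. Without class II UMIs in the total macrophage-like cells had 1.43. Without droplets holding C1q UMIs monocyte-like, DC-like and NK cell-like cells had 1.27, 0.17 and 2.39. The NK median taken off gave 1.22, 1.39, 0.056 and 1.59, and the NK mean at resolution 2 taken off 1.10, 1.35, 0.028 and 1.54. The mean of NK droplets with under 10 C1q UMIs taken off gave 0.63, 1.27 and -0.063 in monocyte-like, macrophage-like and DC-like cells and 1.05 over all cells. Cluster 7 as monocyte-like gave 1.90, cluster 3 as macrophage-like 1.37, and NK droplets under 10 C1q UMIs 1.74. Over all cells the values were 1.07 without clusters held mostly by 1 library, 1.14 with the median gene ratio, 1.23 without class II UMIs in the total, 1.26 without those droplets, 1.18 with the NK median and 1.14 with the NK mean taken off. The 3 NK subtractions, the placing of clusters 7 and 3 and the C1q split of NK droplets were chosen after seeing the data.

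The share of cells above the NK threshold, VISTA KO minus WT in percentage points, was -4.50 in monocyte-like, 1.69 in macrophage-like and -33.1 in DC-like cells. It turned to 30.5, 25.5 and 1.48 with at least 1 UMI, 6.25, 18.3 and 1.67 with 1 threshold for both libraries, and 19.4, 35.3 and 1.96 with at least 10 UMIs. The 99th percentile gave -0.16 in monocyte-like and -27.6 in DC-like cells, thinning to 2000 UMIs -2.32 in monocyte-like cells, and no thinning -7.89 in macrophage-like and -53.8 in DC-like cells. The 95th percentile of NK droplets with under 10 C1q UMIs, like the cut of 10 UMIs chosen after seeing the data, gave -9.57, -3.18 and -24.6.

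With at least 20 UMIs in place of 100, the genes called higher and lower numbered 669 and 244 in monocyte-like cells (418 and 149 with 100), 531 and 259 in macrophage-like cells (349 and 155), 586 and 170 in DC-like cells (327 and 88) and 571 and 182 in NK cell-like cells (302 and 81). With the median gene ratio as scale they were 380 and 551 over all cells (509 and 482 with total UMIs), 303 and 215 in monocyte-like, 294 and 196 in macrophage-like and 234 and 126 in DC-like cells. Of 2492 single-gene ratios under alternatives, 1975 stayed within the interval of the main ratio and 516 left it. Of the ratios that had been called, 1 changed sign, that of H2-DMb2 in macrophage-like cells. It was 1.00 and became -0.29 with those lower limits lifted, and the cause was not tested. Changes of sign in ratios that had not been called were not counted apart. Among them, H2-Eb1 in DC-like cells went from -0.016 to 0.14 and H2-DMa from -0.031 to 0.12 at their highest. Depth limits H2-DMb2, H2-Oa and H2-Ob in monocyte-like and macrophage-like cells, where their UMIs were few and near the NK level.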
